A study of Mus musculus with 4 samples.

Results

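The collagen genes of the mouse were followed through the accessible chromatin of facial surface ectoderm, the epithelium that covers the facial prominences, at E11.5. They were taken as the protein-coding genes of chromosomes 1 to 19 whose symbol has the form Col, a number, a and a number, without Col17a1, which gave 41 genes of 20722. A control peak, that is an accessible site called in control embryos, was counted for a collagen gene when its centre lay within 100 kb of the start site of the principal transcript, and 302 of 65467 control peaks did. An AP-2-dependent region is a site called more accessible in controls than in embryos without ectodermal AP-2α and AP-2β, and 7 of 3103 such regions lay within the same distance. An 8th call near Col19a1 was of mitochondrial sequence and is described apart.

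The study removed the genes of these transcription factors, Tfap2a and Tfap2b, from the ectoderm and asked which accessible sites depended on them. EDKO embryos carried Crect; Tfap2aflox/flox; Tfap2bflox/flox, and the control littermates lacked Crect and carried Tfap2aflox/+; Tfap2bflox/+, so that both groups carried floxed alleles of both genes. Crect is a Cre transgene driven by an intronic enhancer of Tfap2a and is active across the ectoderm from early stages. ATAC-seq, in which a transposase cuts open DNA, was done on 2 control and 2 EDKO libraries, but the deposited lists combine the libraries of each call, so a peak has no value per library and no difference below could be tested between replicates. Shares carry 95% Wilson intervals, which cover counting error only, and the read depth behind a peak is unknown.

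Collagens are trimeric proteins of the extracellular matrix whose chains wind into a triple helix. Fibrillar collagens form the fibres of connective tissue and cartilage and are made mostly by mesenchymal cells, and FACIT collagens decorate such fibres. Collagen IV forms the network of the basement membrane, the sheet on which an epithelium rests, and collagen VII forms the anchoring fibrils that tie the basement membrane of skin to the dermis.

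The tissue label was read against promoter peaks of marker genes, a promoter peak being a control peak within 1 kb of a start site. All 12 surface ectoderm markers had one, at a summit −log10 p of 5.98 to 12.42 with a median of 10.09. Of 8 mesenchymal markers 7 had one, at 4.56 to 10.08 with a median of 5.69, and Lum had none. Of 4 endothelial markers 1 (Kdr) had one. Among all coding genes 66.7% had a promoter peak, with a median summit of 9.61, so these counts alone do not identify the tissue. Promoters of mesenchymal genes were thus open in these libraries too, and their part in the open collagen promoters described below was not tested.

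The 7 AP-2-dependent regions lay near 6 collagen genes. Both regions of the collagen IV pair are shown first because they are the ones that hold the AP-2 consensus GCCNNNGGC, whose match is in capitals. The Col4a1 region, chr8:11263873-11264138, is given whole, and the Col4a2 region is given as chr8:11343322-11343621, the part around its summit. All genomic sequence is the plus strand of GRCm38.
Col4a1 region: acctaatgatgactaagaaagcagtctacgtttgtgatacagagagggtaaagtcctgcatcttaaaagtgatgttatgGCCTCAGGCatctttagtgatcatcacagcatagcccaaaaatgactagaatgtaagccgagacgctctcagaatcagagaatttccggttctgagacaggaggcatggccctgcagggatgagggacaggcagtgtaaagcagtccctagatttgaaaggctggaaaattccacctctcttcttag
Col4a2 region: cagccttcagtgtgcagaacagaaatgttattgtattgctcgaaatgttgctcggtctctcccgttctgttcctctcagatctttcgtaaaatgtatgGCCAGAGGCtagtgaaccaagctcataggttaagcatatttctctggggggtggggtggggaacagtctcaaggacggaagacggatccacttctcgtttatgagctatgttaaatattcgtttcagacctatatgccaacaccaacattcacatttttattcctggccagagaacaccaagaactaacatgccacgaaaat
The match lay 9 bp from the summit in the first and 67 bp from it in the second. Each of these sequences occurs once in the assembly.

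The strongest other regions are shown for contrast, since they hold no GCCNNNGGC. Here the capitals mark a second, looser AP-2 consensus, read as C or G, CC, a pyrimidine, any base, a purine, GG, and C or G. The Col6a4 sequence is chr9:106100315-106100614, and the Col19a1 sequence is chr1:24511598-24511897.
Col6a4 region: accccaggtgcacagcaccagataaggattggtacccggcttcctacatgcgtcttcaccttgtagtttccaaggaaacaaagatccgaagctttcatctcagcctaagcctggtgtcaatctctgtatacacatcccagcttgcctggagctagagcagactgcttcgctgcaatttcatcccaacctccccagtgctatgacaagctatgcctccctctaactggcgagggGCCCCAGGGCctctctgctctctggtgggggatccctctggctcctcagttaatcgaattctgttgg
Col19a1 region: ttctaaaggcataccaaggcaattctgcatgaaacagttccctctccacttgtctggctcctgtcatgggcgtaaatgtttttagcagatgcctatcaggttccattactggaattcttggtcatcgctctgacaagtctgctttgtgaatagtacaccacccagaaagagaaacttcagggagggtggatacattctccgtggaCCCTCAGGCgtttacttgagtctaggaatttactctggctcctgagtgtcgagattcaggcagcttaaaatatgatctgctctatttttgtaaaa
The run of capitals upstream of Col6a4 holds 2 overlapping matches of the looser string, and the Col19a1 sequence holds 1. The looser string was also present in the Col4a1, Col12a1 and Col23a1 regions, and its share over all regions was not computed. A match is a description of the letters and not a bound site.

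Col19a1, which encodes a FACIT collagen, was the collagen gene with the most regions inside it. The first region, chr1:24511598-24511903, lay in intron 9, 75.7 kb downstream of the start site, with a summit −log10 p of 6.32 and an area under the curve (the −log10 p above its threshold summed over the region) of 604. It covered 18.3% of a control peak that is 1669 bp wide and reaches a summit of 10.45 in the control list. That was the strongest region near a collagen gene, at percentile 83.6 of all regions, and its control peak stood at percentile 91.0 of all control peaks.

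The second Col19a1 region, chr1:24562274-24562727, lay in intron 2, 25 kb downstream of the start site, with a summit of 3.56 and an area of 223. It covered 94.4% of a control peak with a summit of 5.39. A strong and a weak region thus lay in the same gene, and Col19a1 was the nearest coding start to both, the next being that of Lmbrd1. Other accessible sites of Col19a1 did not overlap a region, among them the promoter peak (6.22) and peaks 37172 and 33754 bp into the gene (6.24 and 6.11).

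Upstream of Col19a1 lay the mitochondrial call, chr1:24611495-24616217, 26.4 kb from its start site. It was 4723 bp wide with a summit of 218.90 and an area of 510491, and 97.3% of its 31-base words occur in the mitochondrial genome, with a median of 2 copies in the assembly. Where these words match, reads of mitochondrial DNA and of this nuclear copy cannot be told apart, so this call is not counted for Col19a1.

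Col4a1 and Col4a2 encode the chains of the most widespread collagen IV and are transcribed in opposite directions from start sites 21 bp apart. They shared 8 control peaks within 100 kb, 1 promoter peak and 2 regions, 1 in each gene. The Col4a1 region lay in intron 2, 48.8 kb from the start site, with a summit of 3.54 and an area of 208, on a control peak with a summit of 5.41. The Col4a2 region, chr8:11343228-11343621, lay in intron 3, 30.6 kb from the start site, with a summit of 3.50 and an area of 284, on a control peak with a summit of 6.95. Both regions were among the weaker ones of the list, at percentiles 9.64 and 7.77 of the summit, although their control peaks stood above the middle of the control list, at percentiles 55.4 and 72.4. The shared promoter peak, 2764 bp wide with a summit of 10.03, did not overlap a region.

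Col6a4 encodes a chain of collagen VI, which forms beaded microfilaments. Its region, chr9:106100273-106100653, was the closest of the 7 to a start site, 3.68 kb upstream in intergenic sequence, with a summit of 5.41 and an area of 558. It covered 44.7% of a control peak with a summit of 8.86, the strongest peak for which Col6a4 was the nearest gene. The next coding start, that of Glyctk, lay 57.7 kb away, and the Col6a4 promoter itself had no control peak.

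The Col12a1 and Col23a1 regions had the lowest summits, while the smallest area was that of the Col4a1 region. Col12a1 encodes a FACIT collagen, and its region, chr9:79618895-79619182, lay in intron 52 of a transcript of 66 exons, 99.5 kb from the start site, with a summit of 3.35 and an area of 209. Col23a1 encodes a transmembrane collagen, and its region, chr11:51248931-51249241, lay 40.8 kb upstream with a summit of 3.21 and an area of 225, nearer to the start of BC049762 (13.9 kb) than to that of Col23a1. Their control peaks had summits of 3.85 and 3.84, at percentiles 17.5 and 17.1. The 100 kb limit decides on the Col12a1 region, and the nearest region beyond it lay 102 kb upstream of Col18a1.

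**Figure D1:**
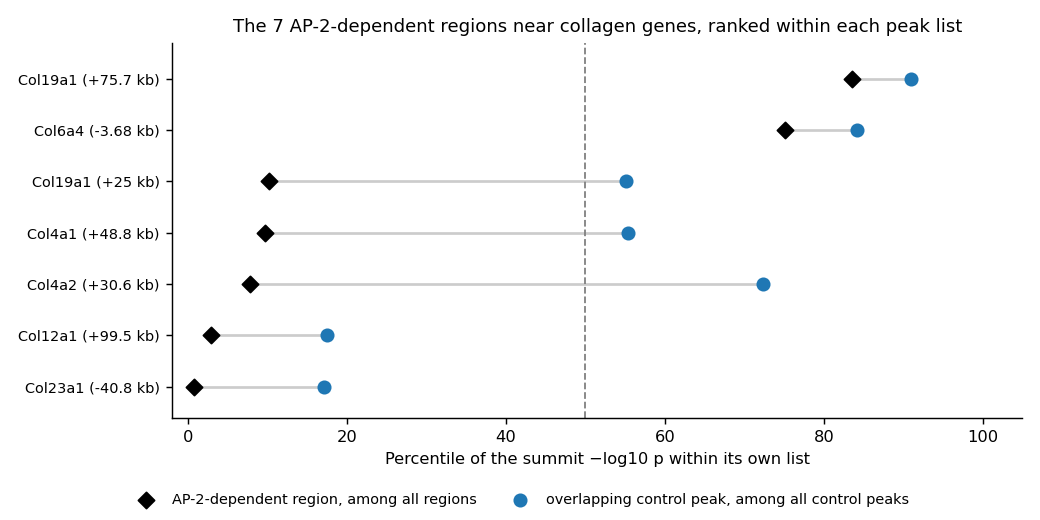
The 7 AP-2-dependent regions near collagen genes, by gene and distance from the start site, with the percentile of the summit −log10 p of each region among all regions (black diamonds) and of its control peak among all control peaks (blue circles). The first Col19a1 region and the Col6a4 region lie at percentiles 83.6 and 75.1, while the other 5 lie at or below 10.2.

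Set beside the whole list, the regions near collagen genes were of low significance and size. Their median summit was 3.54 against 4.40 over all regions, their median area was 225 against 395 and their median width was 311 bp against 360 bp. GCCNNNGGC was present in 2 of 7, or 28.6% (8.22 to 64.1%), and in 29.6% of all regions of chromosomes 1 to 19. With 7 regions the interval is wide, and no difference from the other regions was detectable in this share. All 7 lay in single-copy sequence.

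Around all 41 genes, 7 of 302 control peaks overlapped a region, or 2.32% (1.13 to 4.71%). The background was 3.67% for control peaks within 100 kb of any coding start of chromosomes 1 to 19 and 4.48% for all control peaks. Both background shares lay inside the interval. The share also moved with the way in which peaks were assigned to genes, since many of the windows also held starts of other genes. Of the 302 peaks 140, or 46.4%, had a collagen start as their nearest coding start, and 6 of these overlapped a region (4.29%, 1.98 to 9.03%).

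At the level of genes, 6 of 41 collagen genes had a region within 100 kb, or 14.6% (6.88 to 28.4%), against 21.1% of all coding genes. No region overlapped the 1 kb on either side of a collagen start site (0 of 41 genes, which allows a share of up to 7.32% by a limit of 3 counts, with a Wilson interval up to 8.57%). The same share over all coding genes was not computed, so this count cannot be read as particular to collagens. Among the collagen peaks more than 5 kb from every coding start, 6 of 171 overlapped a region (3.51%, 1.62 to 7.44%), compared with 4.94% of 32192 such peaks around all genes, and among those within 5 kb of a coding start 1 of 131 did (0.763%, 0.135 to 4.20%), compared with 1.55% of 19131 around all genes. Both shares of all genes lay inside the intervals. The one close case was the site upstream of Col6a4.

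The 7 regions were spread over 4 of 9 structural classes. The collagen IV network had 2 of 11 distinct control peaks overlapping a region (18.2%, 5.14 to 47.7%), the FACIT collagens 3 of 83 (3.61%, 1.24 to 10.1%), the transmembrane collagens 1 of 15 (6.67%, 1.19 to 29.8%) and collagen VI 1 of 21 (4.76%, 0.846 to 22.7%). The lower end for the collagen IV network lay above 3.67%, but it rests on 2 sites around 1 pair of start sites, and the classes were not tested against each other. The 11 fibrillar genes had 0 of 95 peaks, which allows up to 3.16% by a limit of 3 counts. The Wilson interval reached 3.89%, so a share at the background of 3.67% is near the limit of what these counts can show. Many of these 95 peaks were nearer to the start of another gene, so the limit holds for the windows and not for the fibrillar genes themselves. Col11a2 was the nearest gene to 1 of its 25 peaks and Col5a3 to 1 of 12, whereas Col5a1 was nearest to all 6 of its own.

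**Figure D2:**
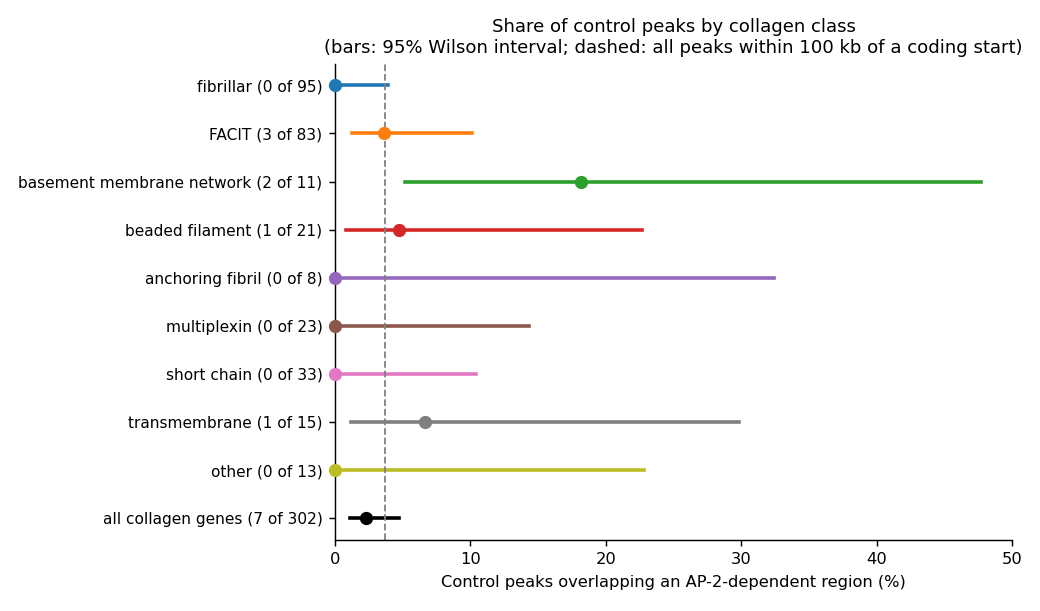
Share of the distinct control peaks within 100 kb of the genes of each collagen class that overlap an AP-2-dependent region, in percent, with 95% Wilson intervals, and the background of 3.67% as a dashed line. Fibrillar collagens have 0 of 95 peaks, the collagen IV network 2 of 11, and all 41 genes together 7 of 302.

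Accessible sites around collagen genes were about as many as around other genes. The median was 7 control peaks per collagen gene (quartiles 3 and 9, range 0 to 25) against 8 per coding gene (4 and 13, range 0 to 96). Their summits had a median of 5.33 against 5.10 over all control peaks, and their GC content had a median of 54.8% against 51.8%. GCCNNNGGC was present in 98 of 302, or 32.5% (27.4 to 37.9%), against 32.3% of control peaks of chromosomes 1 to 19, and within 100 bp of the summit in 41 (13.6%). The windows around collagen genes thus carried this string about as often as accessible sites in general, although their peaks were wider (median 642 bp against 560 bp). Of the 140 peaks nearest to a collagen start 25.7% held it (19.2 to 33.5%), with 32.3% inside the interval. No share over all control peaks was computed for the summit window.

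The genes with the most sites differed in how far these sites lay nearest to the collagen itself. Col11a2, a cartilage chain, had 25 control peaks, but 13 other coding starts lay in its window and it was the nearest gene to only 1 of them. Col8a2, a short-chain network collagen, had 19 and was nearest to 7. Col1a1, of the main collagen of bone and skin, had 18 and was nearest to 7. Col2a1, of the main collagen of cartilage, had 17 and was nearest to 7. Col18a1, a basement membrane multiplexin, had 16 and was nearest to 10. None of the peaks of these 5 genes overlapped a region.

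The opposite case was Col3a1, which encodes a fibrillar collagen of extensible tissues. It was the only collagen gene with 0 control peaks within 100 kb, and no other coding start lay in that window. Col5a2, whose start lies 192 kb away, had 3 peaks, including a promoter peak with a summit of 6.24. Adjacent fibrillar genes of this cluster thus differed, with a peak at 1 start site and none at the other.

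**Figure D3:**
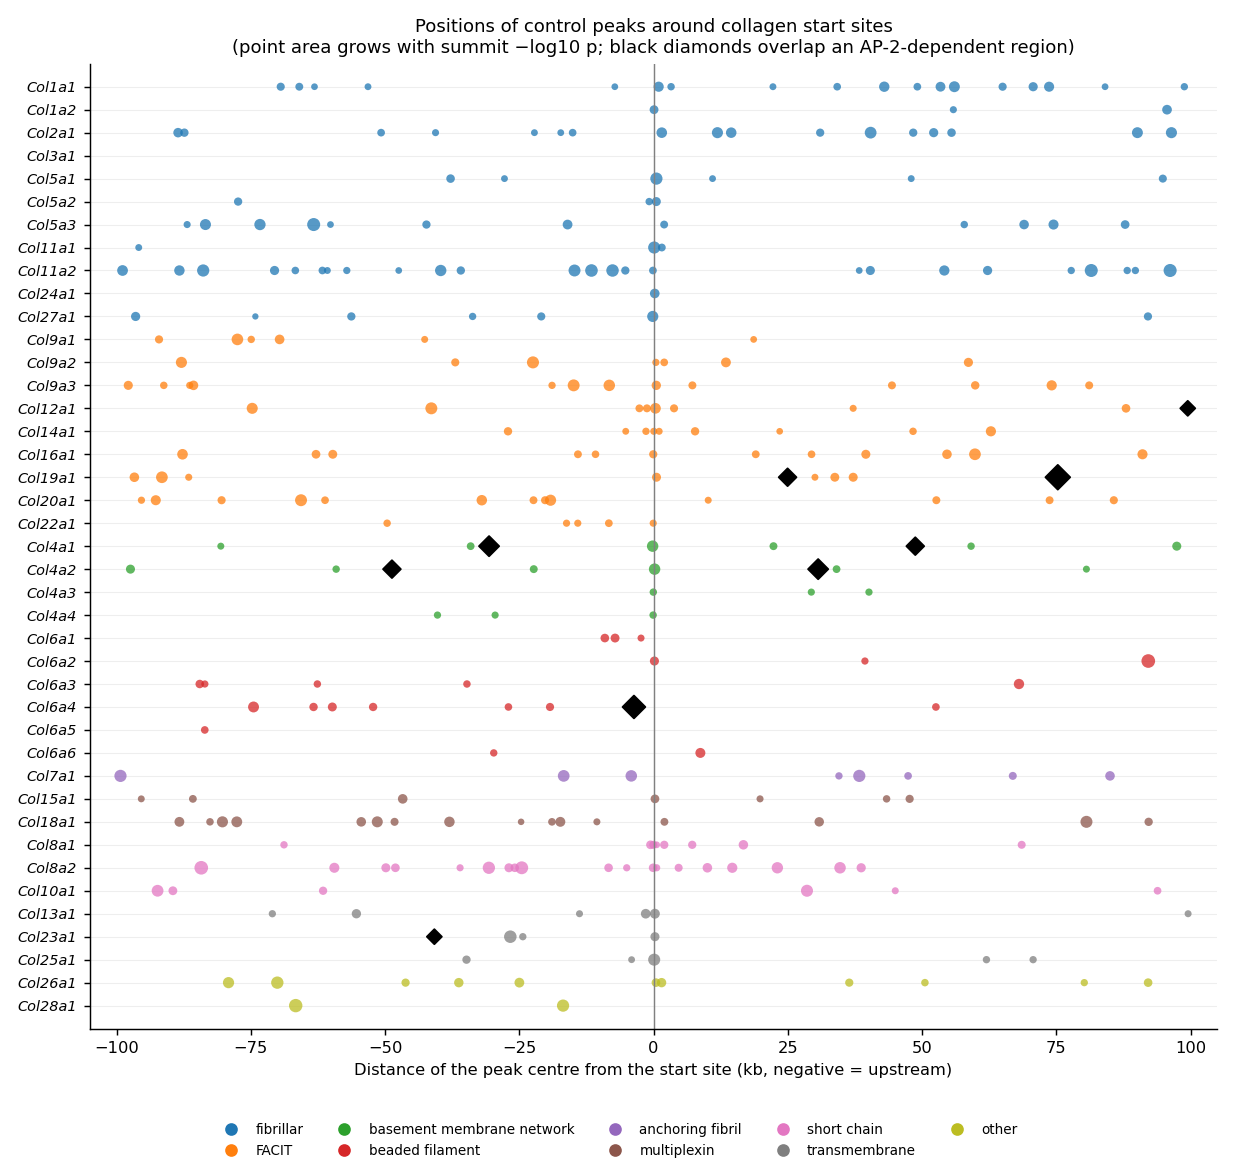
Positions of the control peaks within 100 kb of each of the 41 collagen start sites, in kb with upstream to the left, coloured by class, with point area growing with summit −log10 p and black diamonds for the peaks that overlap an AP-2-dependent region. Col3a1 has no peak, and the diamonds of Col4a1 and Col4a2 are the same 2 sites seen from both start sites.

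Promoter peaks were found at 28 of 41 collagen genes, or 68.3% (53.0 to 80.4%), against 66.7% of all coding genes. Where present they were lower in significance. The median summit was 6.29 (quartiles 5.50 and 8.66) against 9.61 (7.40 and 11.5) over the 13830 open promoters, so that the median open collagen promoter stood at percentile 16.0. The strongest were those of Col5a1 at 11.42, Col11a1 at 11.35, Col25a1 at 11.18 and the shared start of Col4a1 and Col4a2 at 10.03. Col5a1 and Col11a1 encode chains of the minor fibrillar collagens V and XI, and Col25a1 a transmembrane collagen. The highest of them, Col5a1, reached percentile 73.8.

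The number of open promoters is given by class, against 66.7% of all coding genes. The classes hold few genes and were not tested against each other. Of the fibrillar genes 9 of 11 had a promoter peak (4.58 to 11.42), of the FACIT genes 7 of 9 (3.87 to 8.81), and of the transmembrane genes 3 of 3 (6.34 to 11.18). All 4 collagen IV genes had one, but Col4a3 and Col4a4, whose start sites are 127 bp apart on opposite strands, shared a peak with a summit of only 4.24, against 10.03 for Col4a1 and Col4a2. Collagen VI stood at the other end, with 1 of 6 promoters open, that of Col6a2 at 6.35. Col6a1, whose start lies 103 kb from that of Col6a2, had no promoter peak and its strongest peak lay 7.17 kb upstream at 6.09. Along the chromosome 9 cluster, Col6a4, Col6a5 and Col6a6 start 136 and 132 kb from one another, had 8, 1 and 2 control peaks and had no open promoter. Col6a4 and Col6a5 shared 1 of these peaks, and Col6a5 and Col6a6 shared none.

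Col7a1, the anchoring fibril collagen made by keratinocytes, had no peak within 1 kb of its start site. Its nearest accessible site, chr9:108948627-108950249, lay 4.15 kb upstream, inside the gene Uqcrc1, with a summit of 10.19 and did not overlap a region. Of its 8 control peaks this was the 1 for which Col7a1 was the nearest coding start.

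Fibrillar members differed in where their strongest sites lay. Col2a1 had the widest collagen promoter peak, 4765 bp with a summit of 8.61, and a peak of 9.45 within the gene, 11.9 kb from the start. The Col1a1 peak (7.96) began at the start site and reached its summit 1018 bp into the gene, and the peak of Col1a2, which encodes the partner chain in collagen I, had a summit of 6.01 at 80 bp. Col27a1, whose product is found in cartilage, had a peak of 9.56 that was 3259 bp wide. The summit of this peak lay 1.41 kb upstream of the principal start but within the annotated gene, which begins at chr4:63214004. Col24a1 had its promoter peak (7.11) and no other site within 100 kb. Col11a2 had the weakest fibrillar promoter peak, at 4.58, despite the largest number of peaks around it. Col5a3 had no promoter peak, and the 1 site to which it was nearest lay 1.97 kb into the gene at 4.79.

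In several FACIT and other genes a site away from the promoter was the stronger. Col14a1 had the weakest collagen promoter peak, 3.87, and a peak of 7.93 at 62.8 kb into the gene. Col9a2 had a promoter peak of 4.03 and a peak of 7.41 at 13.5 kb, whereas in Col9a3 the promoter peak (6.66) was stronger than the best other site (4.90). These 3 genes thus had open but weak promoters, at percentiles 2.05, 2.70 and 18.9 of all open promoters. Col22a1 had a promoter peak of 3.94 that was 268 bp wide, Col16a1 one of 5.16, and Col20a1 none, with its only nearest site 10.2 kb into the gene at 3.75.

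The collagen VI genes without a promoter peak still had accessible sites nearest to them, except Col6a5. For Col6a3 the strongest lay 68 kb into the gene at 8.18, and for Col6a6 8.72 kb into the gene at 7.67. These values are above the promoter peak of Col6a2 (6.35). None of these sites overlapped a region apart from that of Col6a4.

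Among the remaining classes, Col15a1, the multiplexin partner of Col18a1, had a promoter peak of 5.86 and a stronger site of 7.10 at 46.7 kb upstream. Col8a1 and Col8a2, which encode the network collagen of Descemet membrane, had promoter peaks of 5.76 and 5.61, and Col10a1, the collagen of hypertrophic cartilage, had none and was the nearest gene to 0 of its 6 peaks. Of the transmembrane genes, Col25a1 (11.18) was higher than Col13a1 (7.54) and Col23a1 (6.34). Col26a1 had a promoter peak of 5.75 beside a peak of 6.76 at 1.49 kb, and Col28a1 had none and was nearest to 0 of its 2 peaks. In these classes only the Col23a1 window held a region.

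**Figure D4:**
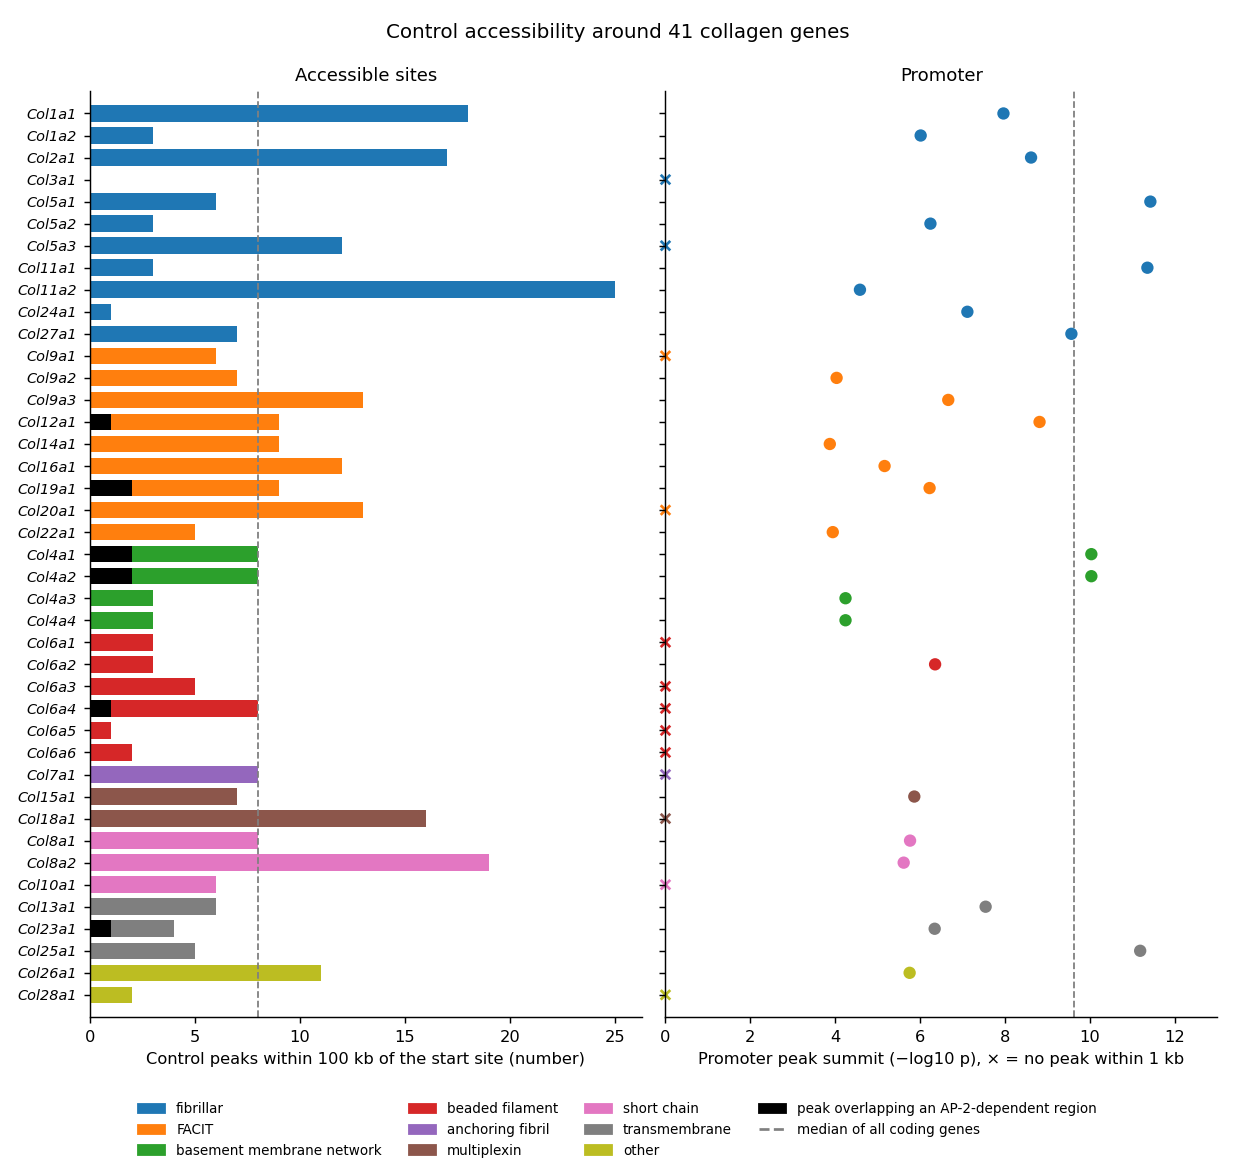
Left, control peaks within 100 kb of each collagen start site, with the peaks that overlap an AP-2-dependent region in black. Right, the summit −log10 p of the promoter peak, with a cross for the 13 genes without one. Dashed lines mark the medians of all coding genes (8 peaks and 9.61), and most open collagen promoters lie left of the second line.

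Promoter peaks were more frequent at a higher CpG content, in collagens as in other genes. In the 300 bp around the start site the median was 14 CpG in collagens with a promoter peak and 6 in those without, compared with 20 and 2 over all coding genes. Of collagens with at least 15 CpG, 13 of 14 were open (98.7% of all genes in that range), of those with 5 to 14 CpG 12 of 19 (67.6%), and of those with 0 to 4 CpG 3 of 8 (13.9%). Col5a3 was the CpG-rich gene without a peak, with 20 CpG, and the CpG-poor genes with one were Col5a2, Col9a2 and Col9a3, with 1, 3 and 3. The ranges therefore ordered the collagens as they ordered all genes, with these 4 exceptions at the ends.

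Promoter sequence is shown for both ends of this range. It is from the RefSeq promoter table of GRCm38.p6, which held 32 of the 41 genes, on the strand of the gene and with every CpG in capitals. The Col4a2 promoter is chr8:11312555-11312854 on the plus strand with 33 CpG, and the Col3a1 promoter is chr1:45311288-45311587 on the plus strand with none.
Col4a2 promoter: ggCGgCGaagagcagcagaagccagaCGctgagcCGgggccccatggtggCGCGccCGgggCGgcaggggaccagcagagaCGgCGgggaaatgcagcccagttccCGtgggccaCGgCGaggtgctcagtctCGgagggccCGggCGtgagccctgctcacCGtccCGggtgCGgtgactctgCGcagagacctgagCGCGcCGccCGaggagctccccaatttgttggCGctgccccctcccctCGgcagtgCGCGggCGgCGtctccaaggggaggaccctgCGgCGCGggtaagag
Col3a1 promoter: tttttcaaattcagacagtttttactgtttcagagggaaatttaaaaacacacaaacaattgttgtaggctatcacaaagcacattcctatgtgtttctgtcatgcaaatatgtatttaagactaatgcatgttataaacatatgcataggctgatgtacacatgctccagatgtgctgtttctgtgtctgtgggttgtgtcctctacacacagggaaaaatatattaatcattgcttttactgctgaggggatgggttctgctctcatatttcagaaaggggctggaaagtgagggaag
The CpG-dense sequence lies under the shared peak of 10.03 and also covers the start of Col4a1 on the other strand, whereas no control peak lies within 100 kb of the CpG-free sequence. GCCNNNGGC, searched on both strands, was in 9 of 35 RefSeq promoters of collagens (25.7%, 14.2 to 42.1%) and in 16.6% of all 32851 in the table, a share inside the interval.

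**Figure D5:**
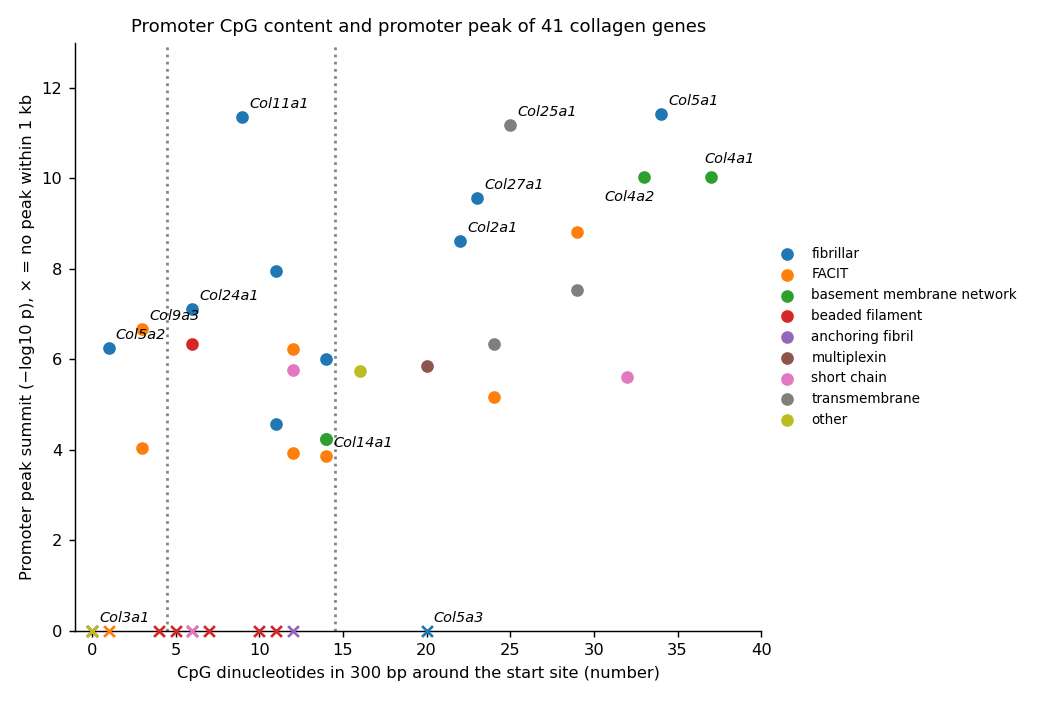
CpG dinucleotides in 300 bp around the start site against the summit −log10 p of the promoter peak, for 41 collagen genes coloured by class, with crosses on the axis for genes without a promoter peak and dotted lines between the ranges of 0 to 4, 5 to 14 and 15 or more CpG. In the right range only Col5a3 has no peak, and in the left range 3 of 8 genes have one.

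Some collagens have more than 1 promoter, and the choice of start site matters for them. Col18a1 encodes collagen XVIII, the precursor of endostatin, and its principal start had no promoter peak. A longer transcript (Col18a1-202) starts 52.8 kb upstream, where peaks with summits of 9.31 and 7.04 lay, the first 4112 bp wide. The RefSeq table holds both promoters, shown here with CpG in capitals, the upstream one as chr10:77166481-77166780 and the principal one as chr10:77113656-77113955, both on the minus strand.
Col18a1 upstream promoter: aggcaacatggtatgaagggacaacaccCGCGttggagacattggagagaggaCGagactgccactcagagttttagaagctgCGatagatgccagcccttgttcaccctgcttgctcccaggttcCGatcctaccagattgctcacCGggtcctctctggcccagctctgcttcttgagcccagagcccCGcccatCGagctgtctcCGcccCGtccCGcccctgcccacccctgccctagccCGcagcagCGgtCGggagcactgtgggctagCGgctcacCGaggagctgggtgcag
Col18a1 principal promoter: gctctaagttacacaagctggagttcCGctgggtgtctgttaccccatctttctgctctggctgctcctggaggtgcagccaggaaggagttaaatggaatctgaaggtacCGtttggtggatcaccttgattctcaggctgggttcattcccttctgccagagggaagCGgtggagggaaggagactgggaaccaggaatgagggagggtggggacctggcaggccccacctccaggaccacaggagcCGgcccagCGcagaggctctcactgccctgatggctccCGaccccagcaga
The upstream sequence holds 16 CpG and the principal one 6. Accessibility in control ectoderm was thus found at the CpG-richer of these 2 starts, and the other annotated coding starts of Col18a1 had no peak within 1 kb. A weaker peak (4.76) lay 2023 bp into the gene from the principal start. The region 102 kb upstream of the principal start lay within 100 kb of the upstream one. Counted from the most upstream coding start of each gene, there were 8 regions and 7 collagen genes with a region.

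Col9a1, a cartilage FACIT gene, was similar in form and weaker. Its principal start had no peak, and a shorter transcript (Col9a1-202) that starts 17.6 kb downstream had a peak of 3.52, at percentile 0.853 of open promoters. In all, 17 collagens had a coding start more than 2 kb from the principal one, and 4 had a peak there, the others being Col8a2 (7.99, 13.7 kb downstream) and Col4a3 (6.64, 128 kb downstream). Of the 13 genes without a peak at the principal start, 2 had one at another start. Neither share was computed over all coding genes, so these counts cannot be read as particular to collagens.

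Genes that act on collagens were counted in the same way, from lists of modifying enzymes, secretion factors, crosslinking enzymes, receptors and proteases. Of 49 listed genes 48 were found by symbol, 39 of these had a promoter peak (81.2%, 68.1 to 89.8%, against 66.7% of all coding genes) and 12 had a region within 100 kb (25%, 14.9 to 38.8%, against 21.1%). Of their control peaks 15 of 479 overlapped a region (3.13%, 1.91 to 5.10%), again with the background of 3.67% inside the interval. A region lay near 2 of 16 modifying enzymes, 4 of 11 secretion factors and 0 of 5 crosslinking enzymes. It lay near 3 of 9 receptors and 3 of 7 proteases, and these small lists were not tested against the 21.1%. All 16 modifying enzymes and all 11 secretion factors had open promoters, with median summits of 9.90 and 8.06, as had 4 of 5 crosslinking enzymes, 5 of 9 receptors and 3 of 7 proteases.

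Among the receptors, Ddr1, a collagen-binding receptor tyrosine kinase of epithelia, had 3 regions. They lay 3.71 and 6.43 kb into the gene, with summits of 6.43 and 6.80, and 32.3 kb upstream at 4.11, and Ddr1 was the nearest coding start to all 3. Itga2, a subunit of an epithelial collagen-binding integrin, had 1 region 1.81 kb downstream of its start at 3.75. Itga10 had 2 regions, 24.5 and 24.1 kb upstream, at 4.40 and 3.95, which lay nearer to Rbm8a.

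Of the 16 modifying enzymes, the 2 with a region were the galactosyltransferases that glycosylate hydroxylysine. Colgalt2 had 1 in the gene, 21.6 kb downstream of its start, at 3.65, and Colgalt1 had 1 at 16.4 kb downstream, at 3.55, and 1 at 36.3 kb upstream, at 4.55, of which the latter was nearer to Slc27a1. For the secretion factors Adamts14, Bmp1, Pcolce and Sec23a, the region (3.83 to 6.84) lay between 55.6 and 95.5 kb upstream and was nearer to another gene in each case. For Sec23a that gene was Mia2, which RefSeq lists as the current symbol of Ctage5, the secretion factor not found by its listed symbol and not counted above. The region lay 5.87 kb into Mia2, whose principal start had no promoter peak. None of the crosslinking enzymes had a region. Of the proteases, Mmp13 had a region 35.1 kb downstream at 3.75 for which it was the nearest coding start, and those of Mmp14 (4.60) and Mmp2 (5.20) were nearer to Slc7a7 and Irx6. Taking nearest starts, 5 of the 12 genes were the nearest coding start to a region, namely Ddr1, Itga2, Colgalt1, Colgalt2 and Mmp13.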

How the data were processed

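The authors trimmed reads with NGmerge, aligned them to mm10 with bowtie2 (keeping up to 10 placements) and ran Genrich for ATAC-seq peaks after discarding mitochondrial alignments and PCR duplicates. One call combined 2 control libraries, and the other set them against 2 EDKO libraries. The deposited values are Genrich's score and area under the curve (also a score), the −log10 p at the summit, and the summit offset. The −log10 p is read as unadjusted, Genrich's default, which the sources used here do not state. Values were read only within their own list, since the calls differ in background. All areas were at least 200.

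Start sites were those of the APPRIS principal transcript in GENCODE (mouse release 21, GRCm38). Overlaps counted from 1 bp. Copy number was the median genome count of 31-base words, and a peak with at least 50% mitochondrial words was set apart. GCCNNNGGC was searched on both strands. Scripts used Python 3.11.15, numpy 2.4.6 and pandas 2.3.3 and were tested on simulated intervals and words. The pooled lists allow no test between groups.

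The collagen genes, classes, partner lists and marker lists were chosen with earlier results of these data known. Named with full values were collagens with a region or with no control peak, the 5 with most peaks, the 5 with the strongest promoter peak, pairs within 200 kb, and partner genes with a region. Further members (Col7a1, those with a second start site and others given for their class) were named after their values were seen. Coverage tracks and RNA-seq were not used here. The result of 1 further marker list is not reported here.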

Additional observations from a re-analysis of the deposited data

How the results depend on the processing

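No paired analysis was possible because the 2 peak lists analysed here combine the libraries of each call and give no value per library, and for the same reason no library was left out. Of 40 alternative values for 6 results, 37 were planned and 3 were chosen after seeing the data. In all, 27 stayed within the interval of the reported share or within 1.5 times the reported count, and 13 did not.

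Keeping only intervals with an area of at least 500 gave an overlap share of 0.948% (2 of 211 peaks) and 2 regions. It left 2 collagen genes with a region (Col19a1 and Col6a4), a median of 4 peaks per gene and a consensus share of 42.2%. The cutoff removes weaker intervals near all genes, since the median area of all regions was 395. No background was computed at this cutoff, so these values cannot be read against the backgrounds given above. A limit of 250 kb gave 27 regions, 18 genes with a region (43.9%, against 43.1% of all coding genes), an overlap share of 3.51% (background 4.15%) and a median of 17 peaks, and a limit of 50 kb gave a median of 4. Counting only peaks whose nearest start was a collagen gave a median of 3 and a consensus share of 25.7%, and put the overlap share (4.29%) above rather than below the background of 3.67%. Requiring an overlap of 50% of both intervals gave 1.32% (background 2.05%). The second AP-2 consensus was in 43.4% of peaks (41.4% of all control peaks), and GCCNNNGGC lay within 100 bp of the summit in 13.6%. The number of open collagen promoters ranged from 25 to 33 under its 5 alternatives. The depth behind each peak is unknown, and 7 regions limit every share among them.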

Other observations

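Beyond the 100 kb windows, 20 further AP-2-dependent regions lay between 100 and 250 kb of a collagen start site, 3 of them inside a collagen gene. One of these, chr1:24290067-24290478, lay within Col19a1 although the nearest start is that of Col9a1, 113 kb away, so that Col19a1 held 3 regions in all (summit −log10 p 3.47, 3.56 and 6.32). The others were in Col27a1 (chr4:63327064-63327522, 112 kb from the start, 3.14) and Col23a1 (chr11:51459746-51460090, 170 kb from the start, 4.20). The Col1a1 window gained chr11:95070230-95070565 (7.18), which lies 6.32 kb from the start of Itga3, a laminin-binding integrin subunit of epithelia.

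Counted over whole gene bodies at any distance, 9 of 129 control peaks inside collagen genes overlapped a region, or 6.98% (3.71 to 12.7%, Wilson), against 3.86% of 36230 control peaks inside any coding gene. Leaving out peaks within 5 kb of a coding start, the shares were 9.57% (9 of 94, 5.12 to 17.2%) and 5.56%. Both shares of all coding genes lay inside the intervals. The 9 regions lay in 7 genes, namely Col4a1, Col4a2, Col12a1, Col19a1, Col23a1, Col25a1 and Col27a1, of which Col19a1 and Col25a1 are 326 and 468 kb long. This count was chosen after the values were seen, is not a test, and gives the opposite order to that of the 100 kb windows, where 2.32% stood against 3.67%.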
